A study of Homo sapiens with 24 samples.

Results

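The comparison set HepaRG cells given FZD8_CRD together with Wnt3a against HepaRG cells given Wnt3a alone. Its 6 arrays were the members by their sample labels, 3 of each condition, out of 24 in the series. HepaRG is a human liver tumor line that behaves as a progenitor of hepatocyte-like and biliary-like cells. None of the 6 cultures was transfected, and all were kept for 72 h in serum-free medium with 200 ng/ml mouse recombinant Wnt3a, without or with 300 ng/ml mouse FZD8_CRD. The other arrays used beside them were 3 of untreated cells, 3 of cells with FZD8_CRD alone, 6 of cells that received control siRNA (80 pmol) without or with Wnt3a, and 6 of cells that received β-catenin siRNA in the same way, which entered the shared estimate of spread. RNA was labelled with Cy3 and measured on one-colour Agilent arrays. A level below is a gene's log2 signal on an array after subtracting that array's 75th percentile, and a difference is FZD8_CRD plus Wnt3a minus Wnt3a alone on the log2 scale, given with its standard error. The number of arrays limits the precision of every value. The labels call the arrays of a condition replicates, and the paper describes the Wnt3a cultures as 3 independent experiments.

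Wnt proteins are secreted lipid-modified ligands that bind Frizzled receptors through a cysteine-rich domain. Engaged receptors protect β-catenin from degradation, and β-catenin then acts with TCF and LEF factors on target genes, among them AXIN2, RNF43 and LEF1. FZD8_CRD is the soluble cysteine-rich domain of Frizzled-8, which binds Wnt ligands outside the cell and is widely used as a Wnt inhibitor. In liver, β-catenin activity is known for its part in progenitor expansion and in the pericentral hepatocyte program that includes GLUL. The comparison addresses which part of the expression state of Wnt3a-treated progenitors is sensitive to this inhibitor.

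Some arrays stood apart from their group. The third array of FZD8_CRD alone correlated more closely with the 3 arrays of FZD8_CRD plus Wnt3a (mean r = 0.994 across genes) than with the 2 others of its own label (0.987). The level of IGFL1 was 0.28 on that array and -3.16 and -3.69 on the other two, and that of SGCA was 1.43 against -2.60 and -2.74. This array is no member of the main comparison, but it bears on every value that involves FZD8_CRD alone. The third Wnt3a array correlated slightly more with untreated cells (mean r = 0.990) than with its own label (0.987), and the closest partner of the first and of the third Wnt3a array was an untreated one (r = 0.993 for both). Within the main comparison, the second Wnt3a array stood apart in another way. Its mean level over the hepatocyte genes described below was 0.29, against 1.53 and 1.67 on the other Wnt3a arrays, and its mean level over the proliferation genes was 1.98, against 1.34 and 1.30. On both lists it lay between the other Wnt3a arrays and those with FZD8_CRD plus Wnt3a. The median SD over genes was 0.21 among the Wnt3a arrays and 0.12 among those with FZD8_CRD plus Wnt3a.

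Compared with cells given Wnt3a alone, cells with FZD8_CRD plus Wnt3a had less RNA of 17 of 27 hepatocyte genes tested. RNA was also lower for 8 of 14 proteoglycan and hyaluronan matrix genes, with 2 higher, and for 6 of 16 Wnt feedback genes. Of 18 cell division genes 17 were higher. SGCA, which encodes a sarcoglycan of the muscle membrane, rose by 4.38 ± 0.65, and CNN1, the smooth muscle actin-binding protein calponin, by 3.07 ± 0.49 (n = 3 arrays a group). FABP1, the liver fatty acid binding protein, fell by 5.96 ± 0.75, and EPYC, the proteoglycan epiphycan, fell by 5.10 ± 0.57. Neither was measured on all 3 arrays with FZD8_CRD plus Wnt3a, so the size of these falls rests in part on signals near the detection limit. Over the alternatives the difference ran from -7.173 to -3.515 for FABP1 and from -5.426 to -3.044 for EPYC. The change was broad. The groups did not overlap for 10898 of 24643 genes tested (44.2%). Of the 24643, 9157 (37.2%) passed an adjusted p under 0.05, of which 4502 (18.3% of all tested) were higher and 4655 (18.9%) lower with FZD8_CRD. A fold rule used the thresholds of a supplementary figure legend of the study, given there for Wnt3a against no Wnt3a. They are a ratio over 1.5 or under 0.7, with p below 0.01. With p taken here before adjustment, the rule gave 4657 genes (18.9%), 1776 of them higher (7.21%) and 2881 lower (11.7%). With arrays scaled to the spike-in probes the calls fell to 2299 at adjusted p, 660 higher and 1639 lower. By the fold rule they fell to 2927, 830 higher and 2097 lower. Without replicate 1 of every condition 4101 genes passed the adjusted p. The 3 same-numbered differences had one sign for 98.4% of the called genes and for 64.7% of all genes.

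Most of the called differences were smaller than 1 on the log2 scale in either direction. A rise above 1 on the log2 scale was called for 618 genes and a fall below -1 for 1203, while 50 rose by more than 2 and 212 fell by more than 2. The largest rises were picked by size alone, and no grouping of them by tissue was tested. FOXS1, a forkhead factor, stayed under the detection limit on the 3 Wnt3a arrays and was measured on all 3 with FZD8_CRD plus Wnt3a, at least 19.7-fold higher (adjusted p = 2.02e-05). Such a bound sets the mean of the brighter group against the detection limit of the dimmer one. SERPINB2, a serine protease inhibitor, was likewise at least 7.34-fold higher. AMTN, an enamel matrix protein, had levels of -1.25, -0.52 and -0.86 with Wnt3a and of 2.82, 2.90 and 3.03 with FZD8_CRD plus Wnt3a, a rise of 3.80 ± 0.70. The groups were far apart on every array. SLN, the calcium pump regulator sarcolipin, rose by 3.24, the keratins KRT14 and KRT16 of stratified epithelium by 2.92 and 2.76, the cytokine IL11 by 2.91 (3.02 in the deposited value table, where it did not pass, adjusted p = 0.497), the adhesion receptor ADGRG1 by 2.81, the defensin DEFB103B by 2.76 and the muscle LIM protein CSRP3 by 2.75. KRT16P2, a pseudogene whose transcripts may not be told from those of KRT16, rose by 2.57. LEFTY1, a TGF-β family antagonist, rose by 2.85 but was measured on 2 of the 3 Wnt3a arrays.

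Among the largest falls, picked by size alone, were genes known from liver. SULT2A1, which sulfonates steroids and bile acids, fell by 5.44 ± 0.61. The alcohol dehydrogenases ADH4, ADH1C and ADH1A fell by 5.17, 4.09 and 4.06. HAO2 (hydroxyacid oxidase), ACSM2B and ACSS1 (acyl-CoA synthetases) fell by 4.79, 4.30 and 4.10, though another kept probe of ACSS1 differed by -0.53 and did not pass. For GLYAT, of glycine conjugation, the brighter probe was lower but not well above background with FZD8_CRD plus Wnt3a, and the other differed by -0.34 and did not pass. ONECUT1, a transcription factor of liver and biliary development also known as HNF6, had levels of 0.50, -1.20 and 0.43 with Wnt3a and of -4.78, -4.51 and -4.33 with FZD8_CRD plus Wnt3a. The second Wnt3a array was the lowest of its group and still lay above all 3 arrays with FZD8_CRD. ABCG8, a sterol transporter of the bile canaliculus, was measured on all Wnt3a arrays and on none with FZD8_CRD, at least 18.9-fold lower. FABP1, HAO2, ACSS1 and ADH1A were measured on 1 array, and SULT2A1, ADH4 and EPYC on 2, of the 3 with FZD8_CRD plus Wnt3a.

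Of 27 hepatocyte genes tested, 17 fell and 0 rose, with a median difference of -1.22 beside -0.08 over all genes. The receptor for desialylated glycoproteins ASGR1 fell by 3.58, the lipoprotein component APOB by 3.54, CYP8B1 of bile acid synthesis by 3.05 and the bile acid receptor NR1H4 by 2.70. The fibrinogen chains FGA, FGB and FGG fell by 2.08, 2.21 and 2.19, and the transcription factors HNF4A and CEBPA by 1.22 and 1.09. ALB, the most abundant member, had levels of 9.19, 7.81 and 9.13 with Wnt3a and of 7.69, 7.65 and 7.58 with FZD8_CRD plus Wnt3a, a fall of 1.07 ± 0.31 (adjusted p = 0.0102). On the second Wnt3a array ALB was close to the level with FZD8_CRD, and the groups did not overlap. Without the first or the third Wnt3a array ALB did not pass, at -0.83 and -0.86. The members that did not pass included the apolipoprotein APOA1 (0.55 ± 0.64) and the thyroxine carrier TTR (1.41 ± 0.72). The median of the list was -1.71, -0.52 and -1.55 on the 3 slides. In these bulk samples, fewer hepatocyte-like cells and less RNA per cell cannot be told apart.

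The cell division genes moved the other way. Of 18 proliferation genes tested, 17 rose and 0 fell, with a median difference of 0.98. RRM2, a subunit of the ribonucleotide reductase that makes DNA precursors, had levels of -0.18, 0.72 and 0.38 with Wnt3a and of 2.13, 1.87 and 2.09 with FZD8_CRD plus Wnt3a, a rise of 1.73 ± 0.21. No Wnt3a array reached the lowest FZD8_CRD plus Wnt3a array. The mitotic kinases AURKB and PLK1 rose by 1.43 and 1.26, the cyclin CCNE2 by 1.28 and the kinase CDK1 by 1.18. With spike-in scaling 8 of the 18 passed, beside 660 higher of all 24643, and the median was 0.89.

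Both lists also differed between the other conditions. The mean level of the hepatocyte genes was 2.06 ± 0.96 (SD, n = 3) in untreated cells, 1.16 ± 0.76 with Wnt3a, -0.52 ± 0.39 with FZD8_CRD and -0.35 ± 0.11 with both. After control siRNA it was 0.10 ± 0.04 without and -0.48 ± 0.28 with Wnt3a. On the 3 arrays of FZD8_CRD alone it was -0.49, -0.93 and -0.14. The proliferation genes stood at 1.26 ± 0.26 in untreated cells, 1.54 ± 0.38 with Wnt3a, 2.67 ± 0.16 with FZD8_CRD, 2.53 ± 0.09 with both, and 2.26 both without and with Wnt3a after control siRNA, with 2.71, 2.81 and 2.50 on the arrays of FZD8_CRD alone. The summed signal of the hepatocyte genes, relative to the 75th percentile, was 1101, 483.5 and 1158 on the Wnt3a arrays and 455.7, 448.5 and 449.2 with FZD8_CRD plus Wnt3a. After β-catenin siRNA the hepatocyte mean was 0.84 ± 0.35 without and 0.24 ± 0.44 with Wnt3a, and the proliferation mean 2.19 ± 0.12 and 2.49 ± 0.20. The hepatocyte mean was thus below that of untreated cells in every electroporated condition, to a different extent, and the part of culture state in the broad change was not tested. The position of an array on its slide was the same for a condition on all 3 slides, so position and condition cannot be told apart.

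**Figure D1:**
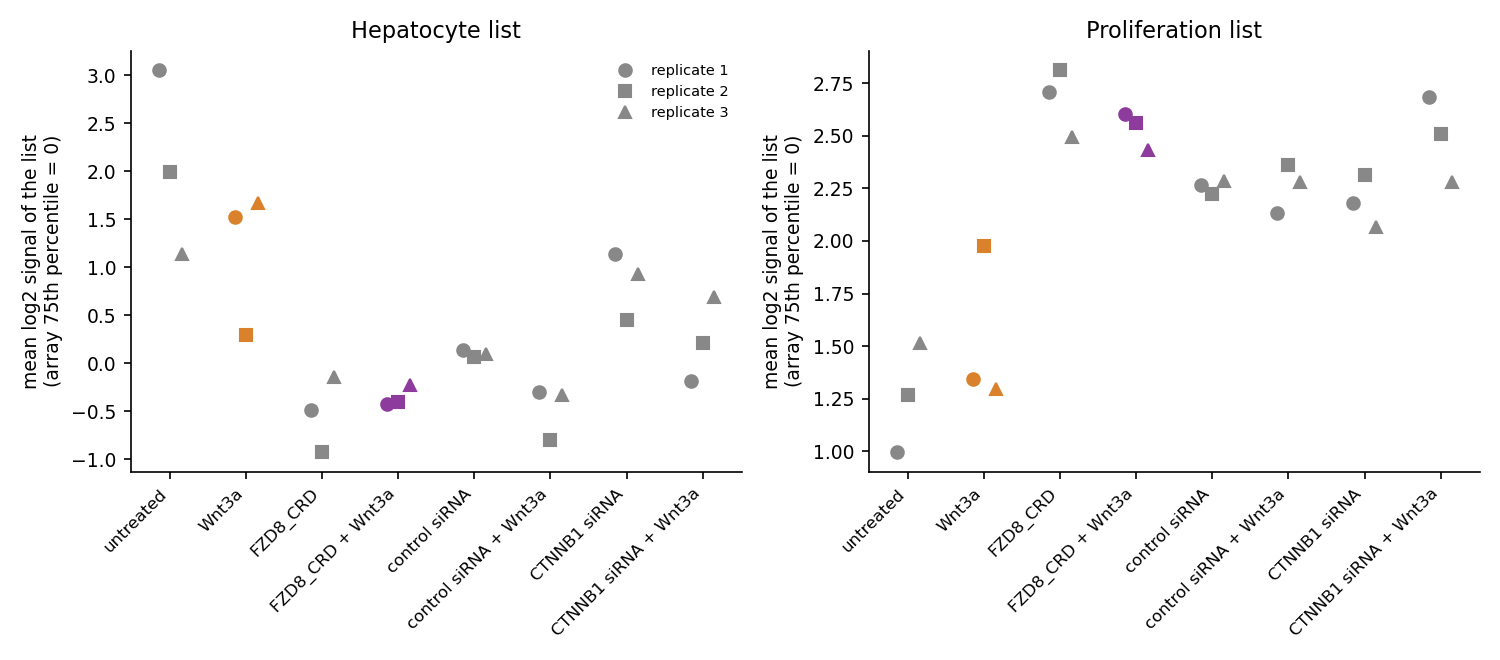
Mean log2 signal of the 27 hepatocyte genes (left) and the 18 proliferation genes (right) on each of the 24 arrays, by condition, relative to the 75th percentile of the array; each marker is an array and its shape the replicate number. The arrays with FZD8_CRD plus Wnt3a (purple) lie below those with Wnt3a alone (orange) for hepatocyte genes and above them for proliferation genes, and the second Wnt3a array (orange square) lies between.

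The list counts here and below stand beside 18.3% higher and 18.9% lower over all genes. Over the genes with a symbol these shares were 23.7% and 20.2%. Spike-in scaling, with 660 higher and 1639 lower of all 24643, left fewer calls in most lists while medians moved little. The β-catenin core kept 0 of 19 (median -0.12 beside -0.03), YAP/TAZ targets 0 of 7 (0.05 beside 0.14), and interferon-stimulated genes 0 higher and 2 lower of 14 (-0.15 beside -0.06). It left 1 higher and 3 lower among the ligands, 4 and 3 among matricellular genes, 2 and 1 among those of epithelial-mesenchymal transition, 1 and 2 among biliary genes, 1 and 0 among stress genes, and 4 and 8 among the genes the study follows. Calls that ended under at least 8 alternatives were those of CCN1, CCNB2, CSNK1A1, GLI1, IFI44, IGF2R, IRF7, MMP9, NOTCH3, NOTCH4, PORCN, PTCH1, RYK, SRPX2, TGFBI, THBS2, PLIN1 and BEST2. Markers of other cell types moved less uniformly. Of 11 biliary and progenitor genes 3 rose and 4 fell: the fetal liver protein AFP rose by 1.45 ± 0.15, KRT19 of bile ducts, the most abundant member, by 0.59 and SOX4 by 0.54, while SOX9, SPP1, MUC1 and CD24 fell by 0.75, 0.85, 0.71 and 0.50. Of 8 fibroblast and smooth muscle genes 1 rose (ACTA2) and 3 fell (DCN, LUM and PDGFRA), and their summed signal was 97.8, 93.2 and 100.9 with Wnt3a and 39.8, 40.0 and 40.1 with FZD8_CRD plus Wnt3a. DCN was the most abundant member. Of 6 endothelial genes, the VEGF receptor KDR fell by 2.06 ± 0.21 and the angiopoietin receptor TEK, not well above background with Wnt3a, was at least 1.70-fold higher, while PECAM1, CDH5 and VWF did not pass. Of 6 leukocyte genes 1 passed, the CSF1 receptor CSF1R, which rose by 2.06 ± 0.43.

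Among the genes listed as feedback targets of the Wnt pathway, 6 of 16 tested fell and 0 rose (median -0.15), beside 18.9% lower over all genes. AXIN2, a scaffold of the β-catenin destruction complex that β-catenin itself induces, had levels of 0.87, 0.67 and 0.77 with Wnt3a and of -0.04, -0.05 and -0.10 with FZD8_CRD plus Wnt3a, a fall of 0.84 ± 0.10 (adjusted p = 6.47e-06). The groups were well separated, and the untreated cells lay between them at 0.48, 0.48 and 0.23. RNF43, a ubiquitin ligase that removes Frizzled from the surface, fell by 1.22 ± 0.11 from 1.62, 1.72 and 1.76 to 0.51, 0.39 and 0.52. APCDD1, a membrane inhibitor of Wnt signaling, stayed under the detection limit on the arrays with FZD8_CRD plus Wnt3a and was at least 5.64-fold lower there. The secreted inhibitor DKK1 fell by 1.36, the planar polarity protein PRICKLE1 by 1.16 and the Dishevelled antagonist NKD2 by 0.98.

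Other feedback genes did not pass, and some of them were high with Wnt3a. LEF1, the transcription factor itself, had levels of 0.96, 1.58 and 0.93 with Wnt3a and of 1.20, 1.23 and 1.19 with FZD8_CRD plus Wnt3a, a difference of 0.05 ± 0.15 (adjusted p = 0.83). The FZD8_CRD arrays fell inside the range of the Wnt3a arrays, above the untreated cells at -0.28, -0.06 and 0.42. With FZD8_CRD alone LEF1 was at 0.93, 0.95 and 1.20. In cells with control siRNA and neither protein its mean was 0.92. The differences were 0.15 ± 0.25 for TCF7, a factor of the same family, 0.26 ± 0.21 for DACT1, 0.17 ± 0.07 for SP5 (adjusted p = 0.0901, or 0.0405 with a block for the replicate number), -0.06 ± 0.09 for ZNRF3 and -0.04 ± 0.13 for CCND1. LGR5, NOTUM, DKK4, WIF1 and TNFRSF19 did not pass the filter on dim probes.

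Of 16 Frizzled receptors and co-receptors 6 fell and 1 rose, or 2 and 0 with spike-in scaling. FZD8 itself, which the protein added to the medium does not contribute to as RNA, fell by 1.30 ± 0.28, from -2.08, -3.07 and -1.46 to -3.57, -3.52 and -3.42. The co-receptors LRP5 and LRP6 fell by 0.82 and 0.37, FZD4 by 0.75, the Wnt5a receptor ROR2 by 0.51 and FZD5 by 0.44, and the atypical kinase RYK rose by 0.20. Of 14 ligands, R-spondins and secretion factors 3 rose and 3 fell (21.4% each). WNT7B rose by 2.02 ± 0.40, WNT10B by 0.88 and the acyltransferase PORCN, which lipidates Wnts, by 0.53, whereas WNT11 fell by 2.12 ± 0.24, WNT6 by 1.21 and the R-spondin RSPO2 was at least 2.51-fold lower. Of 9 secreted inhibitors DKK1, SFRP2 and SOST fell, the last at least 3.75-fold. Of 19 β-catenin core genes DVL1 rose by 0.23 and APC, CTNNBIP1 and CSNK1A1 fell by 0.56, 0.45 and 0.31. CTNNB1, which encodes β-catenin, differed by 0.41 ± 0.17 (adjusted p = 0.0685) and did not pass, though with a block for the replicate number it did (adjusted p = 0.00719), as did its other probe (0.32, adjusted p = 0.0187). Of 6 pericentral genes, GLUL, the glutamine synthetase of the hepatocytes around the central vein, fell by 1.34 ± 0.12 and AXIN2 fell as given above.

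Of 14 proteoglycan and hyaluronan matrix genes 8 fell and 2 rose (median -1.29). EPYC had levels of -0.35, -1.09 and 0.12 with Wnt3a and of -5.12, -6.10 and -5.39 with FZD8_CRD plus Wnt3a. The leucine-rich proteoglycans OMD, DCN, FMOD and LUM, which bind collagen fibrils, fell by 3.83, 2.35, 2.34 and 1.43. HAPLN1, the link protein that ties aggrecan and versican to hyaluronan, had levels of -2.58, -1.64 and -2.12 with Wnt3a and of -5.02, -5.71 and -5.83 with FZD8_CRD plus Wnt3a, a fall of 3.41 ± 0.52 (adjusted p = 4.83e-05). The lowest Wnt3a array lay 2.44 above the FZD8_CRD plus Wnt3a array of the same number. The link protein HAPLN3 fell by 1.55 and the core protein ACAN by 1.16, while the hyaluronan-binding TNFAIP6 rose by 1.85 and the hyaluronan receptor CD44 by 0.60. VCAN did not pass (0.14 ± 0.20).

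Of 9 fibrillar collagens 5 fell and 0 rose. COL3A1 had levels of -0.66, -1.28 and -0.72 with Wnt3a and of -4.19, -4.17 and -3.69 with FZD8_CRD plus Wnt3a, a fall of 3.13 ± 0.23. COL5A3, COL24A1, COL27A1 and COL5A2 fell by 1.81, 1.68, 1.22 and 0.95. COL1A1 went the other way on each slide, with levels of 1.74, 2.76 and 1.68 against 2.96, 3.01 and 2.73, but its difference of 0.84 ± 0.33 did not pass (adjusted p = 0.0527, or 0.0498 with the block). The second Wnt3a array reached the lower end of the FZD8_CRD plus Wnt3a group. Of 17 other collagens 8 fell and 1 rose: the basement membrane chains COL4A6, COL4A3 and COL4A5 fell by 1.34, 1.18 and 1.08, COL10A1, COL6A2, COL7A1, COL6A1 and COL18A1 by 0.71 to 0.99, and COL4A1 rose by 1.28 ± 0.24.

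Secreted glycoproteins and proteases went both ways. Of 18 matricellular genes 6 rose and 4 fell. The adhesion modulators THBS1, POSTN, TNC and CCDC80 rose by 1.93, 1.83, 1.77 and 1.76, and TGFBI and THBS2 by 0.99 and 0.41. Dermatopontin (DPT), a partner of decorin, fell by 3.30 ± 0.23, and fibronectin (FN1), SPP1 and SRPX2 fell by 0.92, 0.85 and 0.35. Of 17 matrix proteases and inhibitors 9 rose and 4 fell, or 4 and 3 with spike-in scaling. The metalloproteases ADAM12 and ADAM19 rose by 1.48 and 1.16 and the urokinase receptor PLAUR by 0.95, whereas MMP13, MMP7 and PCSK5 fell by 2.74, 1.74 and 1.22. The proteases PLAU and MMP9, the inhibitors TIMP3 and TIMP2 and the procollagen protease BMP1 rose by 0.28 to 0.85, and TIMP1 fell by 0.44.

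Of 16 myofibroblast genes 7 rose and 4 fell, or 3 and 4 with spike-in scaling. TAGLN, the actin-binding protein transgelin, had levels of -0.18, 0.92 and -0.32 with Wnt3a and of 2.77, 2.50 and 2.23 with FZD8_CRD plus Wnt3a, a rise of 2.36 ± 0.37. The second Wnt3a array was the highest of its group and stayed below the others. The tropomyosins TPM1 and TPM4 rose by 1.52 and 0.89, the myosin heavy chain MYH9 by 0.51, CALD1 by 0.49 and ACTA2, smooth muscle actin, by 0.26 ± 0.06. LRRC15 fell by 2.12 ± 0.24 and the tropomyosin TPM2 by 0.93, and the PDGF receptor PDGFRA and the integrin ITGA8 were at least 2.67-fold and 2.02-fold lower. FAP did not pass (-0.39 ± 0.32). Of 10 genes of epithelial-mesenchymal transition, VIM, SNAI1, SNAI2, ZEB1 and the N-cadherin CDH2 rose by 1.67, 1.01, 0.45, 0.32 and 0.32, and the E-cadherin CDH1 fell by 1.96 ± 0.38. When the probes of ZEB1 were averaged, its difference was -0.05 and did not pass.

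**Figure D2:**
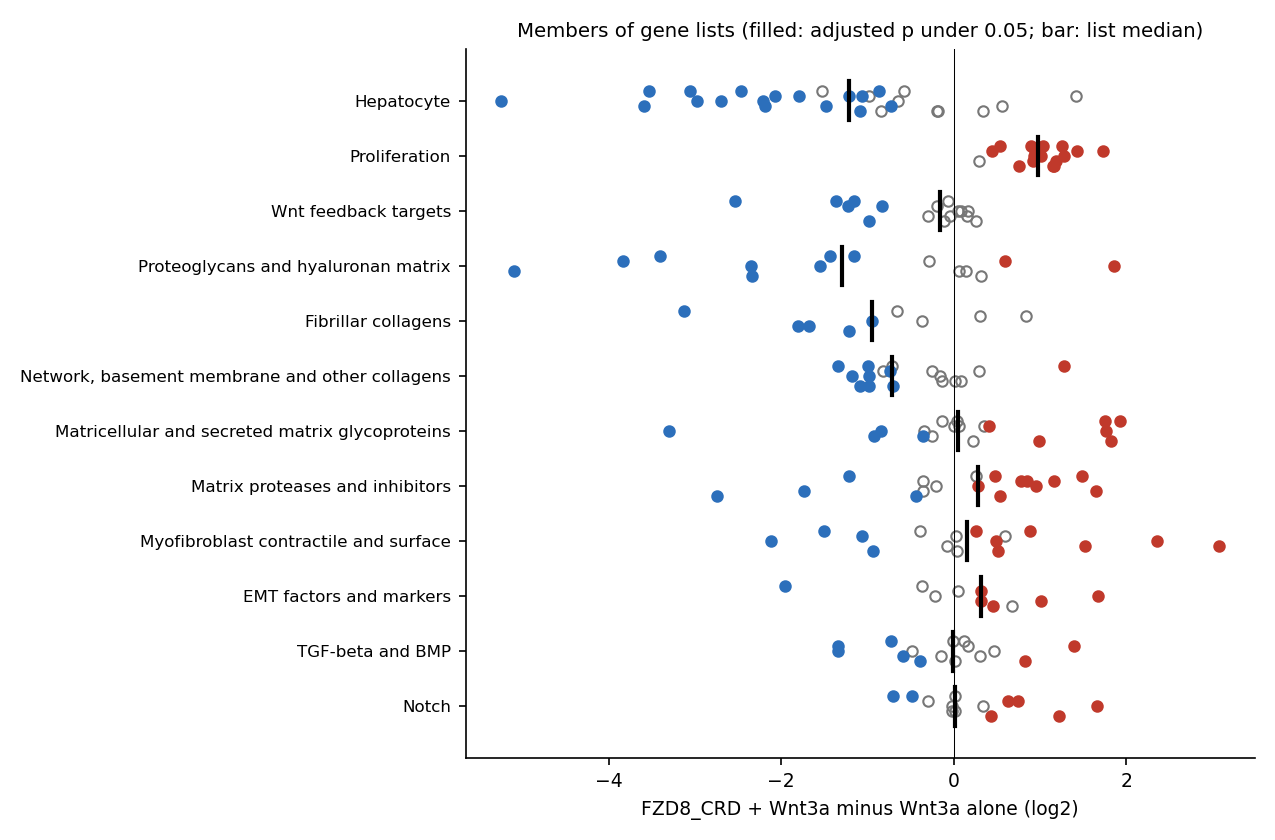
Log2 difference of FZD8_CRD plus Wnt3a minus Wnt3a alone for each tested member of 12 gene lists. Filled circles passed an adjusted p under 0.05 (red higher, blue lower), open circles did not, and black bars are list medians. Hepatocyte genes, proteoglycans and collagens lie mainly below 0, and 17 of the 18 proliferation genes are filled and above 0.

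Signaling lists outside the Wnt pathway split as well. In the TGF-β and BMP list 2 of 15 genes rose, the BMP-responsive ID3 and ID1 by 1.39 and 0.83, and 5 fell, namely the BMP antagonist NOG, the ligand BMP4, ID2, the antagonist CHRD and the receptor TGFBR2, by 1.34, 1.34, 0.73, 0.59 and 0.40. With spike-in scaling 1 rose and 2 fell. TGFB1 (0.12 ± 0.11) and TGFB2 (0.16 ± 0.19) did not pass. In the Notch list 5 of 13 rose and 2 fell, or 2 and 0 with spike-in scaling, with the effector HEY1 up by 1.66, the ligand JAG1 by 1.22, HES1 by 0.75, NOTCH4 by 0.63 and NOTCH2 by 0.43, and DLL1 and NOTCH3 fell by 0.70 and 0.48. LFNG, which modifies Notch, did not pass (-0.30 ± 0.19, adjusted p = 0.229, or 0.00651 with the block), and its other kept probe was called higher, at 0.78. In the Hedgehog list 2 of 8 rose, or 0 with spike-in scaling, PTCH1 by 0.59 and GLI1 by 0.53, and the ligand IHH fell by 0.98 ± 0.23 from 3.30, 3.58 and 3.28 to 2.32, 2.43 and 2.45. In the IGF list 3 of 13 rose and 5 fell, or 1 and 2 with spike-in scaling: the RNA-binding IGF2BP3, IGFBP3 and the receptor IGF1R rose by 1.39, 0.78 and 0.51, and IGFBP5, IGFBP2, IGF2BP1, IGF2BP2 and IGF2R fell, IGFBP5 by 2.24 ± 0.40. Of 7 YAP/TAZ targets ANKRD1, CCN1 and AXL rose by 0.59, 0.48 and 0.37 and AMOTL2 fell by 0.80. Of 14 interferon-stimulated genes 4 rose and 5 fell, with differences from -0.80 (IFI44L) to 0.50 (OAS3). Of 8 stress genes ATF3 and HMOX1 rose by 0.86 and 0.60 (another probe of ATF3 was called lower, at -0.43) and DDIT3 and HSPA5 fell by 0.73 and 0.42.

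The IGFL genes are small secreted proteins encoded side by side on chromosome 19, and 3 of the family's 4 members were tested. IGFL1 had levels of -0.73, 0.01 and -1.01 with Wnt3a and of 2.99, 2.97 and 2.83 with FZD8_CRD plus Wnt3a, a rise of 3.50 ± 0.63 (adjusted p = 0.000235). In the deposited table of normalized values its difference was 3.52 and did not pass (adjusted p = 0.207). Untreated cells were lower than both, at -3.18, -2.84 and -2.94. IGFL2 had levels of 3.07, 3.75 and 3.01 against 3.37, 3.25 and 3.19, a difference of -0.01 ± 0.51, with untreated cells at -1.42, -0.66 and -0.55. The groups overlapped for IGFL2, and both lay far above untreated cells. IGFL3 had levels of 2.78, 4.10 and 2.83 against 2.28, 2.39 and 2.19. All 3 FZD8_CRD arrays were below the lowest Wnt3a array, but the difference of -0.95 ± 0.37 did not pass (adjusted p = 0.051, or 0.0122 with the block).

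The promoters of these neighbours, which moved differently, and of 2 Wnt feedback genes are shown because β-catenin acts through TCF and LEF factors. They are the 250 bases before each start site, from RefSeq on GRCh38.p14, on the strand of the gene. Capitals mark the 6 letters CTTTGA and their reverse complement TCAAAG, a core that TCF and LEF proteins bind, which stood in 11.2% of 35116 promoters of this length. The IGFL1 window (chr19:46229492-46229741, plus strand) held it 152 bases before the start, the IGFL2 window (chr19:46147988-46148237, plus strand) 232 bases before, and the IGFL3 window (chr19:46124689-46124938, minus strand) did not hold these letters. DKK1, which fell, held it 149 and 95 bases before the start (chr10:52314031-52314280, plus strand), and SP5, which did not pass, at 147, 109 and 83 bases (chr2:170715087-170715336, plus strand). Of 11 tested feedback genes with an entry, 3 held it in an entry, namely DKK1, SP5 and DACT1. This count is per gene, and some genes have several entries, whereas the 11.2% is per promoter. APCDD1, RNF43, NKD2 and PRICKLE1, which fell, did not hold these letters in any entry. The genes and the motif were chosen after the values were seen, and a match is a description of letters, not a binding site.
IGFL1: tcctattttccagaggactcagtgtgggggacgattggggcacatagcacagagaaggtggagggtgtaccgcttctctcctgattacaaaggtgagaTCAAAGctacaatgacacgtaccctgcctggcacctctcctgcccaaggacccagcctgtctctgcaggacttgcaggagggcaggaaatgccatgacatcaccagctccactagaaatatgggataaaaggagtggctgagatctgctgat
IGFL2: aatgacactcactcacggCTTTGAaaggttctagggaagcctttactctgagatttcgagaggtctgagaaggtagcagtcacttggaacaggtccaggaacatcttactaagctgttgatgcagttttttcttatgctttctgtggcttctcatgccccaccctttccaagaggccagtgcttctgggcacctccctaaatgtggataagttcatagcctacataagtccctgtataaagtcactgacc
IGFL3: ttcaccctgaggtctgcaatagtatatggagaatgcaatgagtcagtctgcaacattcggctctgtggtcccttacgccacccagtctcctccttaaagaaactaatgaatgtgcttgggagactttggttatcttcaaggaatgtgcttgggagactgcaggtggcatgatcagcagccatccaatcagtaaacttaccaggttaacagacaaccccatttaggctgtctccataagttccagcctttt
DKK1: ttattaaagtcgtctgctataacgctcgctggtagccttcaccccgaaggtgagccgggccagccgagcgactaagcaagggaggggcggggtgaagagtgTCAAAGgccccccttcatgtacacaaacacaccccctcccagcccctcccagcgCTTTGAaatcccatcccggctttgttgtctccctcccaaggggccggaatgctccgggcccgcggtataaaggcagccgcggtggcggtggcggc
SP5: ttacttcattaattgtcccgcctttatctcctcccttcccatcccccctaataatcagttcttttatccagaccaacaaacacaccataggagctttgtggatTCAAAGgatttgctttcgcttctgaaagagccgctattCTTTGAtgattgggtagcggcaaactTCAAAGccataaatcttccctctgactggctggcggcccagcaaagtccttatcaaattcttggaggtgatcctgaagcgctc

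The genes that the study follows were in part chosen in it on these arrays, so their count is no independent evidence of a direction. Of 25, 24 were tested, of which 8 rose, 8 fell and 8 did not pass. Beside those given above, the LIM protein FHL2 rose by 0.78 ± 0.12. PI15, a secreted protease inhibitor, had levels of -1.16, -1.92 and -1.24 with Wnt3a, stayed under the detection limit with FZD8_CRD plus Wnt3a, and was at least 23.1-fold lower there (4.54 ± 0.34 with the limit filled in). LRRC15 went from -0.76, -0.36 and -0.40 to -2.73, -2.64 and -2.51, still above the untreated cells at -3.92, -3.41 and -3.57.

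**Figure D3:**
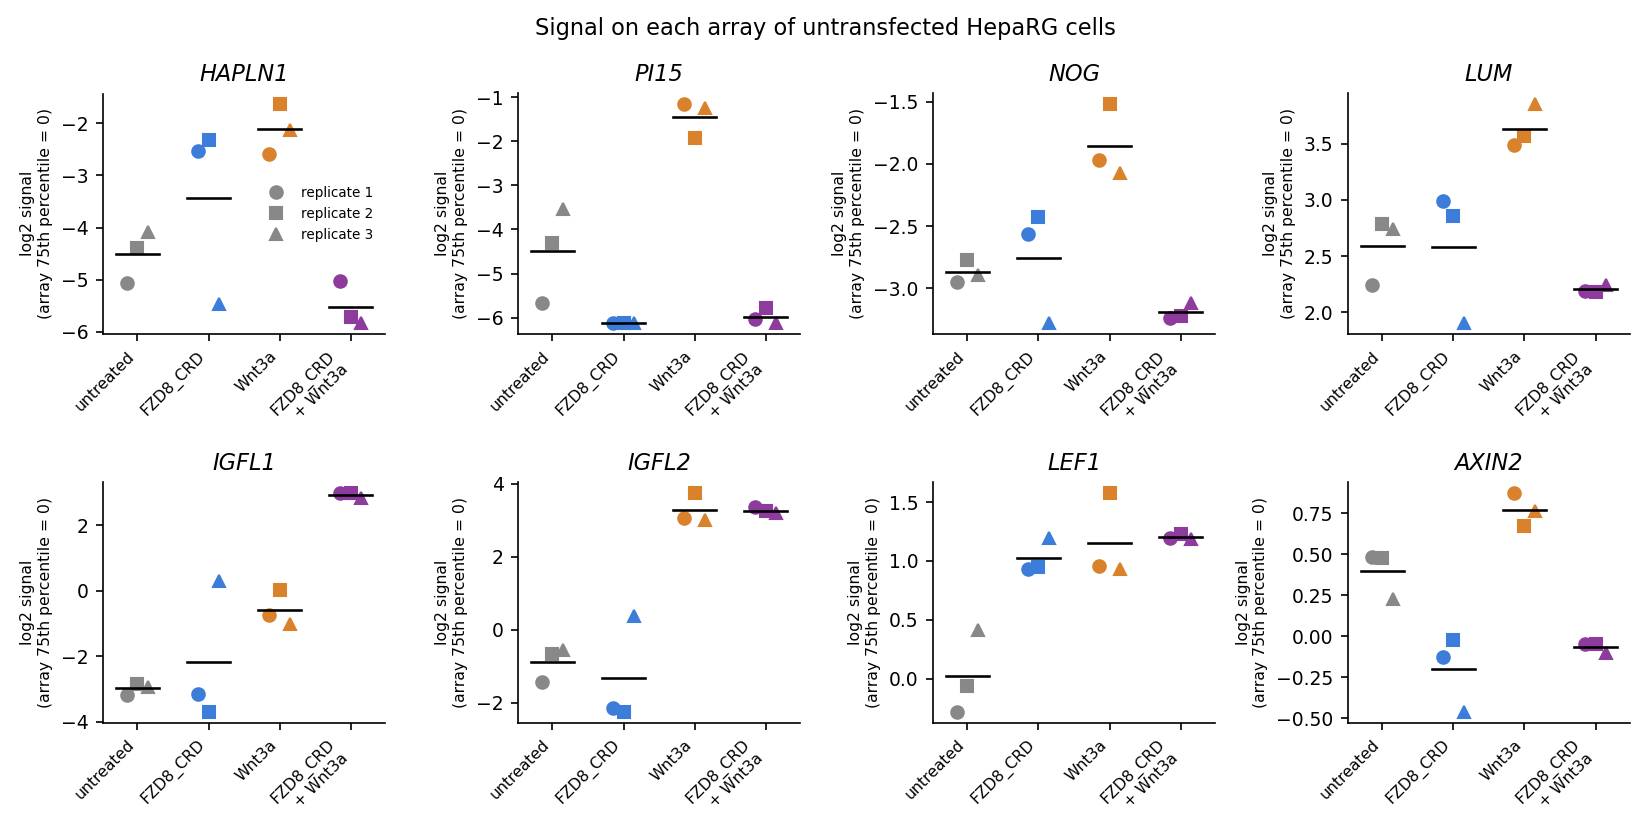
Log2 signal of 8 genes, relative to the 75th percentile of the array, on the 12 arrays of untransfected cells; markers are arrays, their shape is the replicate number, and bars are means of 3 arrays. HAPLN1, PI15, NOG, LUM and AXIN2 are low with FZD8_CRD plus Wnt3a, IGFL1 is high there, and IGFL2 and LEF1 stay near the level with Wnt3a alone; the third array of FZD8_CRD alone (blue triangle) stands apart for HAPLN1, NOG, LUM, IGFL1 and IGFL2.

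To ask how genes that respond to Wnt3a stood when FZD8_CRD was added, lists were taken from the cells with control siRNA, whose arrays are not part of the comparison but lay on the same slides. Wnt3a raised 262 genes there (1.06% of those tested) and lowered 235 (0.954%). With a block for the replicate number the lists held 546 and 489 genes. They held 559 and 688 without the third array of FZD8_CRD alone, and 4 and 0 without replicate 1 of every condition. Of the 262 raised genes, 49 fell and 100 rose with FZD8_CRD plus Wnt3a against Wnt3a alone, 18.7% and 38.2% of them, and the median difference was 0.17. With spike-in scaling 30 of these 262 fell and 25 rose, with a median of 0.08. When the list was also redrawn under that scaling it held 54 genes, with a median of -0.01. Without the second Wnt3a array the median over the same 262 genes was 0.30, and without the third it was 0.11. Of the 235 lowered genes, 154 fell further and 14 rose, and the median difference was -0.43, or -0.54 over the same genes without the second Wnt3a array. With spike-in scaling 60 of the 235 fell and 2 rose, with a median of -0.51. In that direction the genes stood farther from untreated cells with the inhibitor than without it. The median of the raised list was 0.29, -0.03 and 0.27 on the 3 slides, and that of the lowered list was -0.53, -0.22 and -0.55. Where no Wnt3a had been added, the medians for FZD8_CRD alone against untreated cells were 0.216 for the raised and -0.379 for the lowered list.

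Among the 10 genes with a symbol that Wnt3a raised most after control siRNA, LRRC15 and the proprotein convertase PCSK5 fell with FZD8_CRD, IGFL1 rose, and 7 did not pass. PCSK5 had levels of 5.00, 5.54 and 4.94 with Wnt3a and of 3.94, 3.92 and 3.96 with FZD8_CRD plus Wnt3a, and of 2.45, 2.99 and 2.95 in untreated cells. Cells given both proteins thus lay between the other groups. The 7 were IGFL2, IGFL3, COL1A1, SCG5 (0.81 ± 0.33, adjusted p = 0.0617, or 0.0394 with the block), CTHRC1 (0.35 ± 0.30), PRDM1 (-0.06 ± 0.39) and MMP3 (-0.21 ± 0.45). Among the 10 genes with a symbol that Wnt3a lowered most, 8 fell further: the lipid droplet proteins PLIN5, at least 6.97-fold lower, and PLIN1, at least 1.57-fold lower, the antisense RNA C1QTNF1-AS1 by 2.63, the receptor IL1RL1 by 2.42, the surface protein PSCA by 2.35, PGLYRP2 by 1.96, FA2H by 1.27 and BEST2 by 0.75. The calls of PLIN1 and BEST2 ended under 13 of 21 and 14 of 22 alternatives. S100P (-0.56 ± 0.31) and CTSZ (-0.10 ± 0.35) did not pass.

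**Figure D4:**
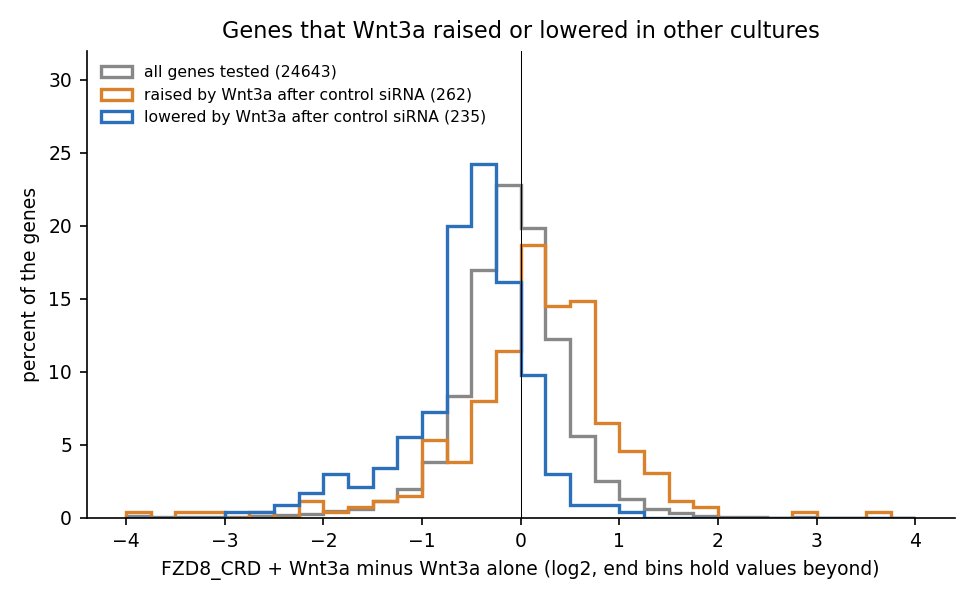
Distribution of the log2 difference of FZD8_CRD plus Wnt3a minus Wnt3a alone over all 24643 genes tested (grey), the 262 genes raised by Wnt3a after control siRNA (orange) and the 235 genes lowered by it (blue), in percent of each group of genes. The lowered genes lie to the left of all genes and the raised genes slightly to the right, with medians of -0.43, 0.17 and -0.08.

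FZD8_CRD alone, against untreated cells, gave 10316 calls (41.9%), or 10013 without the third array of FZD8_CRD alone. These arrays are not those of the main comparison, but they lay on the same slides. Across genes, which are not independent replicates, the 2 FZD8_CRD differences correlated with r = 0.803 (Spearman's rho = 0.801), or r = 0.703 without the third array of FZD8_CRD alone. The genes called in both with the same sign were 6837, 74.7% of the calls with Wnt3a and 66.3% of those without, and 21 were called with opposite signs. Without that array the shared calls were 6315, or 64.7% and 63.1%. Most of what FZD8_CRD changed in Wnt3a-treated cells thus also differed in the same direction where no Wnt3a had been added. FABP1 fell by 5.84 with FZD8_CRD alone (5.61 without that array), COL3A1 by 2.81 (2.83), RNF43 by 1.30 (1.35) and AXIN2 by 0.60 (0.47), and RRM2 rose by 1.94 (2.04).

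**Figure D5:**
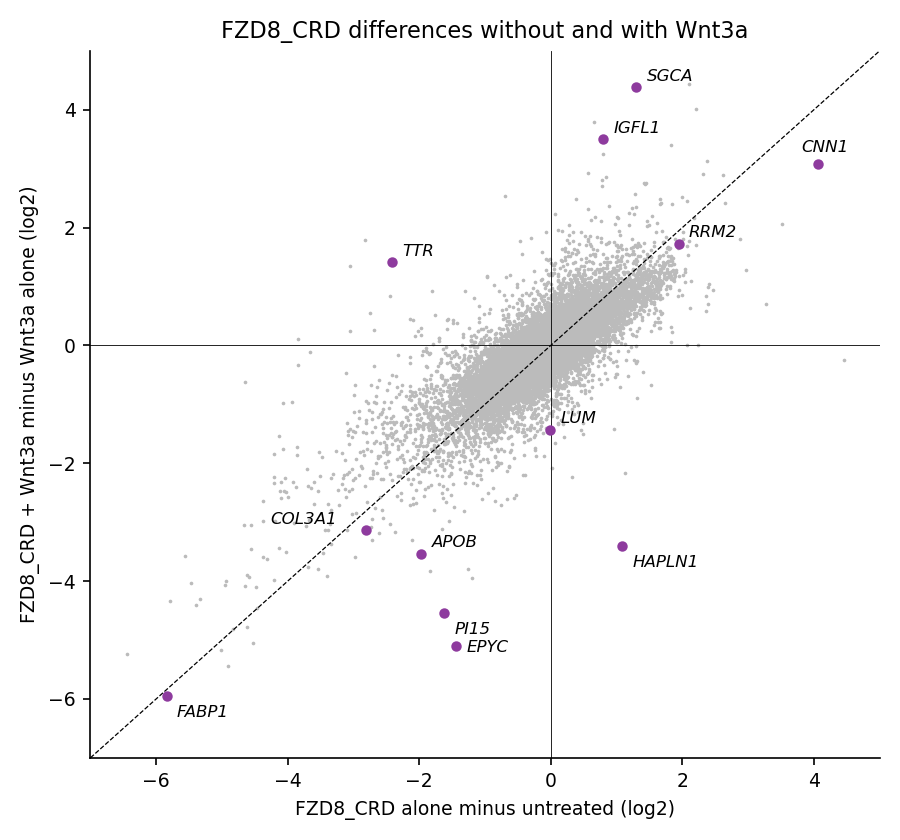
Log2 difference made by FZD8_CRD without Wnt3a (x axis, against untreated cells) and with Wnt3a (y axis, against Wnt3a alone) for the 24643 genes tested; the dashed line marks equal differences and named genes are purple. FABP1, COL3A1 and RRM2 lie near the line, HAPLN1, PI15, EPYC and LUM below it, and SGCA and IGFL1 above it.

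The test of the difference itself, the effect of FZD8_CRD with Wnt3a minus that without, was passed by 18 genes (0.073%), 13 lower and 5 higher, and 3111 had an unadjusted p under 0.05. A block for the replicate number turned the 18 into 148, all 18 among them, whereas only the 12 arrays of untransfected cells gave 0, leaving out replicate 1 or replicate 2 gave 0, the filter on all 6 arrays gave 4, and the table of deposited values gave 5. Without the third array of FZD8_CRD alone 1915 genes passed, 1129 lower and 786 higher, again with all 18 among them. Of the 18, 12 have a symbol. HAPLN1 stood at -2.54, -2.31 and -5.46 on the arrays of FZD8_CRD alone, against -5.07, -4.40 and -4.08 in untreated cells. Its effect with Wnt3a was lower by an interaction of -4.48 ± 0.74 (adjusted p = 0.0266), or -5.49 without that array. For LUM the interaction was -1.42 ± 0.27 (adjusted p = 0.0477) and for NOG -1.45 ± 0.25 (adjusted p = 0.0382), or -1.76 and -1.72 without it. That array lay near those with both proteins for these genes, so the larger values without it follow from leaving it out. They are descriptions, not tests. Leaving out any single array with FZD8_CRD plus Wnt3a, or the first or second Wnt3a array, ended the calls of LUM and NOG, and the call of HAPLN1 ended without the second or the third array with FZD8_CRD plus Wnt3a (-4.39, -4.33) or the second Wnt3a array (-4.25). PI15 was not well above background with FZD8_CRD whether or not Wnt3a was present, so its interaction of -2.92 rests on the detection limit and on the untreated and Wnt3a arrays. The other 8 with a symbol, outside the rule for named genes and listed after their values were seen, were NALCN, NXN, SLC26A2, SLC1A3, KCNJ2, SLC29A3, TECTB and DOCK2; the interaction was positive for TECTB and DOCK2. The values of these last 2 rest on the detection limit in untreated and Wnt3a cells, and that of NALCN on the limit with both proteins.

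Several of the largest rises depended on that array in the same test. These genes are among those by which the array stood apart, so the larger values without it follow from leaving it out and are given as descriptions, not as tests. With all arrays the interaction of SGCA was 3.08 ± 0.92 (adjusted p = 0.158), and without the third array of FZD8_CRD alone it was 4.45. On the 2 remaining arrays SGCA differed from untreated cells by -0.07. ADGRG1, AMTN, SLN, FOXS1 and IGFL1 likewise had interactions of 2.92, 4.58, 3.56, 3.62 and 3.95 without it, and of 2.04, 3.14, 2.45, 2.34 and 2.71 with it, none of which passed. The values of FOXS1 rest on the detection limit in the Wnt3a cells. Of 16 Wnt feedback genes 6 were called lower and 1 higher in the interaction without it, beside 1129 lower and 786 higher of all 24643, and none passed with it in the fit without a block. With all arrays and the block PRICKLE1, LEF1 and NKD2 passed (adjusted p = 0.0335, 0.0465 and 0.0465). For AXIN2, which fell with FZD8_CRD in both settings, the interaction did not pass either way.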

How the data were processed

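The authors labelled RNA with Cy3 and scanned one-colour arrays, and the deposited intensity of each of 62976 spots is, per the file headers, the background-subtracted signal of Feature Extraction 10.7.1.1. The authors also deposited a table of log2 values for 25443 probes, scaled to the 75th percentile and centred per probe, which served as an alternative.

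From the spot intensities, marked spots were dropped, arrays scaled to their 75th percentile, repeats averaged, signals floored at the median over arrays of the lowest signal well above background (1.431% of that percentile, log2 -6.127) and log2-transformed. Probes that the scanner software marked well above background throughout at least 1 condition were kept (31061 of 50683), and the brightest stood for its gene, giving 24643 genes, 15997 with a symbol. Symbols came through RefSeq transcripts. Of 4839 genes with several kept probes, 1834 had some called and others not, and 74 had calls in opposite directions. limma 3.58.1 (R 4.3.3) fitted all 24 arrays and 8 conditions with a moderated statistic, two-sided, and p was adjusted over all genes by Benjamini and Hochberg. The difference in effect with and without Wnt3a was tested as an interaction. Where no array of a group had a signal well above background (under the detection limit in the text), the change is given as a bound, unless another probe of the gene was well above it.

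Arrays with the same replicate number shared a slide and deviated together: between the 2 conditions r was 0.284 to 0.464 for the 3 pairs (mean 0.366, and -0.181 for other numbers), and over all conditions 82 of 84 pairs were above 0.1. The block for the replicate number was therefore run as an alternative. The -0.181 for other numbers is no separate evidence, because deviations from a condition mean cancel out, which gives it the opposite sign.

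Genes with a symbol were named by rule: the 15 largest called rises and falls, called members of the lists, the study's genes, the 10 largest of each Wnt3a list, and FZD8, CTNNB1 and AXIN2. Some genes that the rule names are not reported here; the counts and medians include them. Members that did not pass are named as examples, chosen after their values were seen. The members and lists were chosen with earlier results of these data known. Promoter windows were read from RefSeq GRCh38.p14. Figures were drawn with matplotlib 3.10.9.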

Additional observations from a re-analysis of the deposited data

Results flagged for a closer look

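For 4 genes named by the rule the test of the difference itself, the interaction, was passed with all arrays and no block. The call ended under 6 of 21 alternatives for HAPLN1, 9 of 20 for PI15, 12 of 21 for NOG and 14 of 21 for LUM, among them the fit of the 12 untransfected arrays for all 4. The values on the log2 scale were -4.484 for HAPLN1, -2.917 for PI15, -1.454 for NOG and -1.423 for LUM. In HAPLN1, NOG and LUM the third array of FZD8_CRD alone lay near the arrays with both proteins, and without it the differences were larger (-5.494, -1.716 and -1.763). These larger values follow from leaving that array out and are descriptions, not tests. A technical reading is that this array received material or treatment of another condition, and a biological one is that this culture responded differently. On this array HAPLN1, NOG and LUM were at -5.46, -3.28 and 1.90, beside means of -5.52, -3.19 and 2.20 with both proteins. IGFL1 and IGFL2 were on this array at 0.28 and 0.39, between the other arrays of its label and those with both proteins. With both proteins IGFL1 and IGFL2 were at 2.83 to 2.99 and 3.19 to 3.37. Its closest partner by correlation was the third array of FZD8_CRD plus Wnt3a (r = 0.996). The labels do not settle it, and neither reading was tested. For PI15 the value rests on the detection limit in both conditions with FZD8_CRD.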

How the results depend on the processing

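Of 226 named genes, 211 passed, 117 of them under every alternative, 94 fell short under at least 1, and ZEB1 reversed. Of 15 that did not pass, 7 passed under some alternative and 7 reversed under some.

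Scaling to the spike-in probes gave 2299 calls at adjusted p (main 9157) and 2927 by the fold rule (4657). It gave medians of -0.013 for the 54 genes then on the Wnt3a-raised list and -1.52 for the 2 genes then on the lowered list, and 11 interaction calls (18). It also left 8 proliferation genes higher, and 25 raised-list genes higher and 30 lower. These 3 counts were added after seeing the data. The hepatocyte and proteoglycan counts under this scaling were added in the same way and are not reported here. Interaction calls were 5 in the deposited value table (20052 genes tested), 11 with normexp, 41 with no filter (41258), 4 with the filter on all 6 arrays (21999), 5 with a floor of 1 unit, and 0 with only the 12 arrays of untransfected cells. The fit of only 6 arrays gives no interaction.

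The replicate block gave 148 interaction calls and 11913 main calls. Among named genes it added LFNG, IGFL3, COL1A1, SCG5 and CTNNB1 and ended no call.

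Leaving out a replicate of every condition or 1 array gave 4101 (without replicate 1) to 10069 calls, medians over redrawn lists of 0.006 (10 genes) to 0.427 (442) for the raised list and -0.714 (2 genes) to -0.326 (332) for the lowered list, and 0 to 2896 interaction calls: 0, 0 and 2896 without replicate 1, 2 and 3, 180 without the third Wnt3a array, and 1915 without the third array of FZD8_CRD alone. Without replicate 1 the lowered list was empty and gave no median. Over the same 262 and 235 genes the medians ran from 0.102 to 0.301 and from -0.556 to -0.353, and were 0.083 and -0.514 with the spike-in probes.

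Values that reversed were 0.194 for PRDM1 (quantile), -0.041 for LEF1 (spike-in), 0.023 for IGFL2 (normexp), and -0.053 for ZEB1 and 0.24 for LFNG (mean of probes). Over the leave-outs LEF1 ran from -0.063 to 0.261, IGFL2 from -0.163 to 0.236, TGFB2 from -0.055 to 0.398, PRDM1 from -0.125 to 0.014, MMP3 from -0.564 to 0.072 and CTSZ from -0.48 to 0.49. The cause was not tested. Another kept probe did not pass for ADAM12, APC, CD44, CDK1, CHRD, COL6A2, CTNNBIP1, CYP2B6, DVL1, MUC1, MYH9, PCSK5, PTCH1, ROR2, THBS2, TPM4 and ZEB1. It had the opposite sign for CHRD, CTNNBIP1, CYP2B6, MUC1, THBS2 and ZEB1, and another probe of LFNG passed as higher (0.784). Signal over background limits dim genes: 158 called genes were not well above background with FZD8_CRD plus Wnt3a, and 81 with Wnt3a alone.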
